A study of Danio rerio with 15 samples.

Results

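The comparison set 12 libraries of injured venous tissue from zebrafish larvae, taken at 4 times after a laser injury, against 3 libraries of uninjured venous tissue, and looked for genes that moved the same way at every time. All 15 libraries of the series entered it, chosen by their labels and column names and by no measured value. Every larva carried the reporters flk1:eGFP, which marks endothelium, and gata1:dsRed, which marks erythroid cells, so the control carried them too. The injured groups were thrombus tissue at 1 h (the start of the clot, per the submitters), 3 h (its peak), 6 h (its stable phase) and 12 h (its regression) after laser damage to endothelial cells behind the anal pore, with 3 libraries each. The control was venous tissue of larvae without injury, also with 3 libraries. Tissue came from 20 frozen sections of 20 µm by laser capture microdissection, and RNA was sequenced on a HiSeq 4000. Neither the age of the larvae nor the number of animals is given in the labels. The captured regions are not tied to animals, so libraries may share or pool animals. The p-values below therefore reflect the spread among libraries alone. That spread may be partly technical, so a p-value can be too small. The control has no time of its own, so time of day and handling cannot be told apart from injury.

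A cut or burned vessel sets off haemostasis: thrombocytes and fibrin close the wound, plasmin and proteases later clear the clot, and cells around it turn on stress and repair genes. Immediate early genes such as those of the AP-1 family respond first and are usually shut off again by their own feedback. Haem released from broken erythrocytes induces haem oxygenase, cytokines signal through JAK and STAT proteins and are held back by SOCS proteins, and unfolded proteins induce heat shock genes. Against a mean over times, a gene can stand out because it stays changed or because it changes strongly for a while, and the 4 times were therefore set side by side for each gene.

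Expression is in FPKM, in which reads are divided by transcript length and by the mapped reads of the library. Recovered depth was 12486844 to 15651535 reads per library. Injured libraries had 12811 ± 1432.6 genes above 0 (SD, n = 12) and control libraries 13422 ± 135.21 (SD, n = 3), a difference of -610.83 (two-sided exact permutation test over libraries, p = 0.47033). That test pools the 4 times and does not tell whether a single time differed. Libraries of 1 h had 10953, 12156 and 11224 genes above 0 and those of 3 h 12232, 12446 and 12620. At 6 h it was 12309, 13325 and 12615, at 12 h 13087, 16337 and 14426, and in the control 13572, 13310 and 13383. Transcripts of skeletal muscle were abundant in the captured tissue. The 43 muscle markers that passed a filter on low values summed to 120719 to 247600.0 FPKM in injured and 203462 to 266482 FPKM in control libraries. The 35 endothelial markers that passed it summed to 48.8 to 198 and 130 to 179 FPKM. The endothelial receptor gene kdrl, the source of the green reporter's promoter, was above 0 in all 15 libraries, at 0.0276 to 4.55 FPKM in injured and 1.3 to 7.20 FPKM in control tissue. SOX17 and esamb were the endothelial markers at 0 in every library. The thrombocyte gene itga2b, which encodes the integrin that binds fibrinogen, did not pass the filter on low values. It had 0 to 1.85 FPKM in injured and 0 to 0.262 FPKM in control libraries. Neural markers stood apart in 2 injured libraries. Their mean log2 level relative to the control mean was 2.36 in the 1 h library of column B and 3.90 in 12 h replicate B, with -0.44 to 1.27 in the other injured libraries and -0.19 to 0.34 in the control. The number of genes that passed, and the values of lists and genes that moved most without these 2 libraries, are also given without them.

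The injured mean differed from the control in 7 of 13051 tested genes: 6 rose and 1 fell (limma, Benjamini-Hochberg adjusted p under 0.05; 0.0536% of genes tested, 0.046% higher and 0.00766% lower). After median ratio scaling 6 rose and 2 fell, and after quantile normalization 7 rose and 3 fell, the 7 genes being among them each time. With no filter on low values 4 of the 7 were among the genes that passed, and with voom on recovered reads, another limma fit, 2 were, BHLHE40 and ppdpfa. The voom fit called 27 genes, 3 higher and 24 lower, and its adjusted p was 0.165 for cbx7a, 0.297 for tcap, 0.0883 for SOCS3, 0.437 for HMOX1 and 0.156 for FOSL2. The genes that rose were cbx7a, tcap, BHLHE40, SOCS3, HMOX1 and FOSL2, which belong to chromatin repression, the sarcomere, the clock, cytokine feedback, haem breakdown and AP-1. The gene that fell was ppdpfa. In 4 of the 7, cbx7a, BHLHE40, FOSL2 and ppdpfa, the difference from the control had 1 sign at all 4 times (0.0306% of genes tested), 3 higher and 1 lower. With those scalings it was 3 higher and 2 lower, and 3 higher and 3 lower. The other 3, tcap, SOCS3 and HMOX1, were below the control mean at 12 h. At an unadjusted p under 0.05, 817 genes passed (6.26%), 382 higher (2.93%) and 435 lower (3.33%). In all, 3948 genes (30.3%) had 1 sign at every time, whether or not they passed a test, 2106 above (16.1%) and 1842 below the control mean (14.1%). Of these, 677 (5.19%) also had an unadjusted p under 0.05 for the injured mean. The 4 differences share the 3 control libraries, so 1 sign at 4 times is a description. Log2 differences are of log2(FPKM + 1), injured minus control, and understate the change of low genes.

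cbx7a encodes a subunit of Polycomb repressive complex 1, which keeps genes silent. It had 38.3, 42.1 and 45.4 FPKM at 1 h, 231, 174 and 115 at 3 h, 51.7, 21.0 and 53.3 at 6 h and 7.17, 2.41 and 13.7 at 12 h, against 3.94, 3.06 and 1.95 in the control. Every library at 1, 3 and 6 h lay above the control, and 12 h replicate B lay among the control values. The injured mean was higher by a log2 difference of 3.29 ± 0.42 (SE, limma adjusted p = 0.00369), with 3.46, 5.43, 3.35 and 0.93 at 1, 3, 6 and 12 h.

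tcap encodes telethonin, the cap protein that binds titin at the Z-disc of the sarcomere. It had 180.5, 825 and 415 FPKM at 1 h, 1529, 1511 and 1696 at 3 h, 189, 281 and 119 at 6 h and 0, 11.3 and 6.22 at 12 h, against 1.99, 16.0 and 8.94 in the control. The libraries at 1, 3 and 6 h were all above the control and did not overlap with it, and those at 12 h were at control values or below. The mean log2 difference was 4.25 ± 0.62 (limma adjusted p = 0.0130), with 5.64, 7.63, 4.55 and -0.83 at 1, 3, 6 and 12 h. The mean level of skeletal muscle markers per library was -0.52 to 0.17 in injured and -0.08 to 0.08 in control tissue, relative to the control mean.

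BHLHE40 encodes a basic helix-loop-helix repressor that acts on clock genes. It had 39.4, 56.6 and 22.0 FPKM at 1 h, 28.7, 19.6 and 22.4 at 3 h, 2.68, 6.46 and 0.472 at 6 h and 0.416, 1.35 and 0 at 12 h, against 0, 0 and 0.0265 in the control. It was close to absent in the control, and 11 of 12 injured libraries lay above all 3 control libraries. The mean log2 difference was 3.04 ± 0.49 (limma adjusted p = 0.0360), with 5.22, 4.59, 1.77 and 0.57 at 1, 3, 6 and 12 h.

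SOCS3, the feedback inhibitor of JAK-STAT signalling, was summed over 2 gene IDs and had 68.3, 98.6 and 62.5 FPKM at 1 h, 202, 122 and 133 at 3 h, 47.8, 30.1 and 64.1 at 6 h and 4.62, 10.3 and 5.28 at 12 h, against 7.89, 14.4 and 7.02 in the control. Its mean log2 difference was 2.1 ± 0.35 (limma adjusted p = 0.0388), with 2.88, 3.86, 2.16 and -0.49 at 1, 3, 6 and 12 h. HMOX1, the haem oxygenase that opens the haem ring and frees its iron, had 61.7, 51.6 and 30.6 FPKM at 1 h, 290.2, 132 and 80.0 at 3 h, 17.6, 17.6 and 37.3 at 6 h and 0.403, 2.18 and 2.17 at 12 h, against 1.17, 3.60 and 5.27 in the control. Its mean log2 difference was 2.66 ± 0.46 (limma adjusted p = 0.0471), with 3.57, 5.20, 2.57 and -0.72 at 1, 3, 6 and 12 h. For both genes the 9 libraries of the first 3 times lay above the control and the 12 h libraries reached down to or below it.

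FOSL2 encodes a Fos-family subunit of AP-1. It had 29.6, 46.2 and 28.2 FPKM at 1 h, 61.0, 38.9 and 39.8 at 3 h, 13.0, 5.97 and 10.7 at 6 h and 3.79, 1.70 and 7.38 at 12 h, against 1.41, 1.67 and 4.05 in the control. The mean log2 difference was 2.40 ± 0.42 (limma adjusted p = 0.0471), with 3.45, 3.87, 1.71 and 0.58 at 1, 3, 6 and 12 h, and the 12 h libraries overlapped with the control.

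ppdpfa, named for pancreatic progenitor cell differentiation and proliferation factor, was an abundant transcript in uninjured tissue. It had 256, 358 and 266 FPKM at 1 h, 166, 108 and 179 at 3 h, 469, 816 and 1048 at 6 h and 1238, 889 and 1110.0 at 12 h, against 1561, 1864 and 1423 in the control. All 12 injured libraries lay below all 3 control libraries, which held for no other gene among the 7. The mean log2 difference was -1.90 ± 0.23 (limma adjusted p = 0.00369), with -2.47, -3.44, -1.12 and -0.59 at 1, 3, 6 and 12 h. The 6 markers of pancreas and intestine that passed the filter on low values summed to 0.0667 to 124 FPKM in injured and 5.78 to 701 FPKM in control libraries. Of all 27 matched markers 9 were at 0 throughout.

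**Figure D1:**
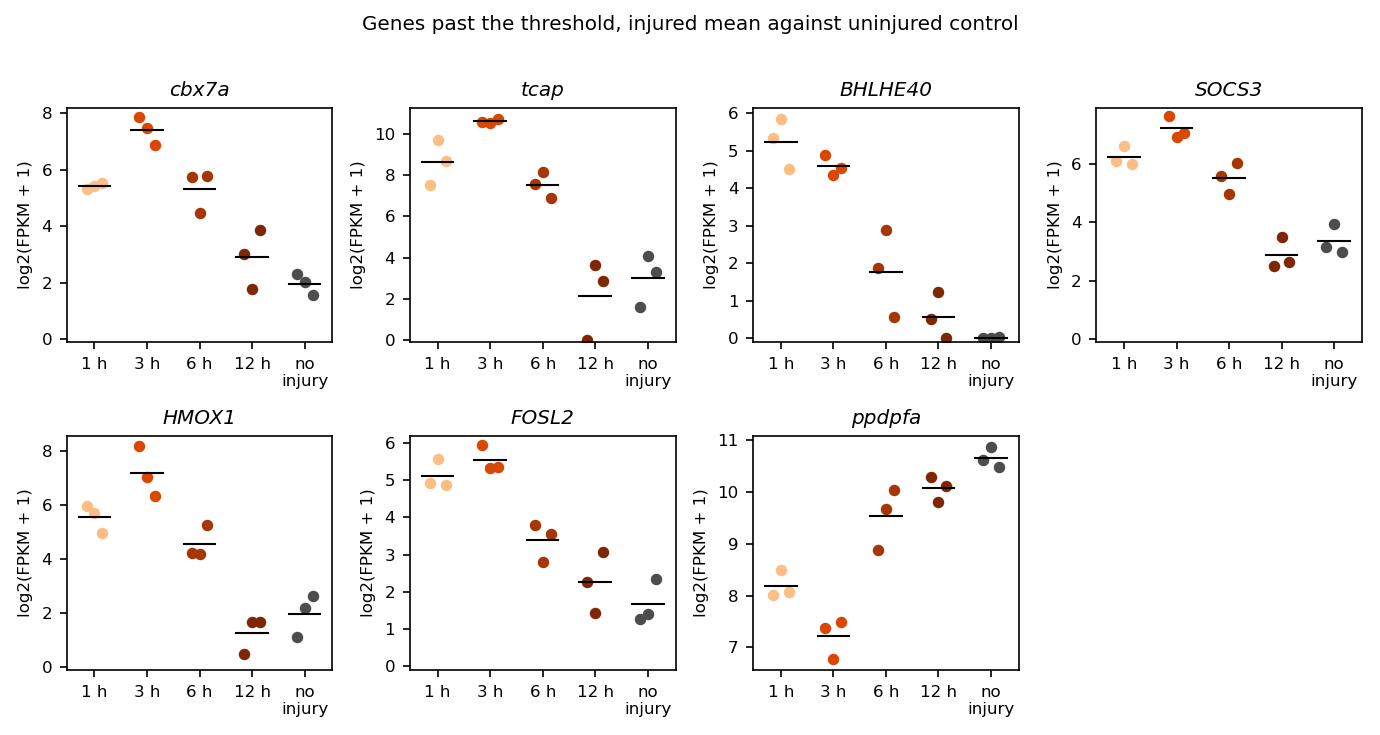
Expression of the 7 genes past the threshold, as log2(FPKM + 1) per library (points) with group means (bars), for 1, 3, 6 and 12 h after injury and uninjured tissue. The 6 genes that rose are highest at 1 or 3 h and near the control at 12 h, and ppdpfa is lowest at 3 h and still below the control at 12 h.

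None of the 7 was level across the injured times. All 7 differed among 1, 3, 6 and 12 h in the moderated F test. That test does not compare with the control mean, though the control libraries enter its estimate of spread. All 7 also passed against the control at both 1 h and 3 h. In the F test 277 of 13051 genes passed (2.12%). In all 7 the 12 h difference was the smallest in size, and in 6 the 3 h difference was the largest, with BHLHE40 largest at 1 h. The single-time comparisons called 29 genes at 1 h (0.222%, 16 higher and 13 lower; 1218 or 9.33% at an unadjusted p under 0.05) and 181 at 3 h (1.39%, 109 higher and 72 lower). At 6 h and at 12 h limma called 0 genes, with 721 (5.52%) and 992 (7.6%) at an unadjusted p under 0.05. With voom on recovered reads the 6 h and 12 h comparisons called 1 and 8.

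**Figure D2:**
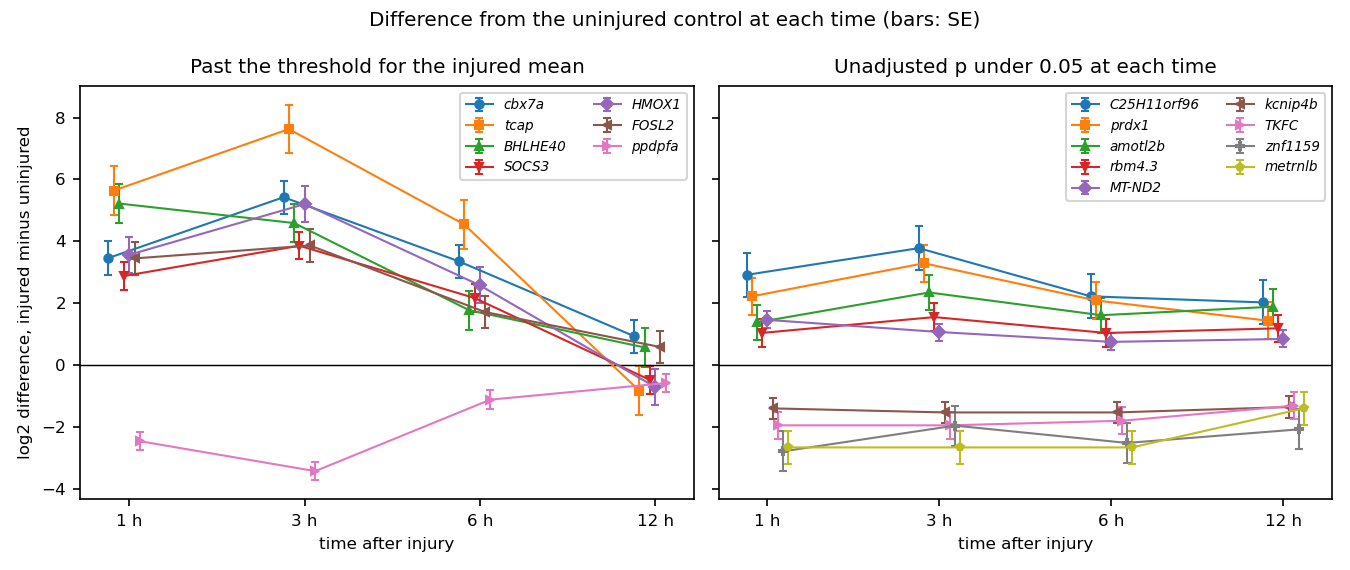
Log2 difference from the uninjured control (vertical axis) at each time after injury (horizontal axis), with standard errors, for the 7 genes past the threshold (left) and for 9 genes with an unadjusted p under 0.05 at each time (right). The 7 genes lie closest to 0 at 12 h. The genes on the right keep their sign because they were chosen for it, and none passed after adjustment. Their 12 h differences lie between 0.84 and 2.02 or between -2.08 and -1.32.

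Which 7 genes passed depended on single libraries and on 3 h. Without control replicate B 0 genes passed, without control replicate C 1 passed, and without control replicate A 7 passed, of which 2 were among the original 7. The count was 3 without 1 h replicate A, 3 h replicate A or 6 h replicate A, 4 without 3 h replicate B, 6 h replicate C or 12 h replicate C, and 11 without 1 h replicate C. Over the 15 fits that each left out 1 library, ppdpfa passed in 14, cbx7a in 13, tcap in 12, BHLHE40 in 8, SOCS3 in 5 and HMOX1 and FOSL2 in 3 each. Without the 3 h libraries 0 genes passed, and without the 12 h libraries 31 did, including all 7. Without the 2 libraries with high neural markers 23 genes passed, 14 higher and 9 lower. These included 6 of the 7, while HMOX1 missed with a limma adjusted p of 0.0505. Of genes described below, arpp21, kcnip4b, TKFC, CDC42EP3, znf1159, MT-ND2, MT-ATP6 and MT-ND4 passed without those libraries. Among them kcnip4b, TKFC and znf1159 passed the filter on low values only with the control libraries, so their calls are no separate support.

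Taking the largest of a gene's 4 p-values asks directly whether it differed from the control at each time. After adjustment 0 genes passed in limma, and 0 passed with voom on recovered reads. At an unadjusted p under 0.05 at each time 32 genes remained (0.245%), 11 higher (0.0843%) and 21 lower (0.161%). The 21 lower genes were mostly faint: 20 had a control mean under 10 FPKM and all 21 were listed at 0 in at least 1 injured library. Some of them, kcnip4b, TKFC, znf1159 and metrnlb among those named, passed the filter on low values only with the control libraries, where they are high. Of the 32, 11 also had injured and control libraries that did not overlap, as had 45 of all 13051 genes (0.345%). The 32 were chosen on the same libraries, so this count is no separate support.

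The smallest of these p-values belonged to kcnip4b, a calcium-binding partner of Kv4 potassium channels (unadjusted p = 0.00118). It had 0, 0.314 and 0 FPKM at 1 h, 0, 0 and 0 at 3 h, 0, 0 and 0 at 6 h and 0, 0.232 and 0.167 at 12 h, against 2.44, 2.02 and 1.34 in the control. It was listed at 0 in 9 of 12 injured libraries and its 4 log2 differences were nearly equal, with -1.40, -1.54, -1.54 and -1.36 at 1, 3, 6 and 12 h. At these levels a gene of 2000 bases with 3 reads would have 0.0958 to 0.12 FPKM. The difference of the injured mean was -1.46 ± 0.28 and missed the threshold (limma adjusted p = 0.0797). kcnip4b reached 1 FPKM in no injured library and so passed the filter on low values through the control alone. Its p-values therefore rest on the values that selected it and are no separate support for a difference.

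TKFC, the kinase that phosphorylates dihydroxyacetone and glyceraldehyde, had 0, 0 and 0 FPKM at 1 h, 0, 0 and 0 at 3 h, 0, 0 and 0.360 at 6 h and 0.230, 1.81 and 0.0836 at 12 h, against 2.21, 3.42 and 3.10 in the control (-1.95, -1.95, -1.81 and -1.32 at 1, 3, 6 and 12 h; unadjusted p at every time 0.00730). The zinc finger gene znf1159 had 0, 0 and 0 FPKM at 1 h, 0.164, 3.20 and 0.158 at 3 h, 0.339, 0.319 and 0 at 6 h and 0, 3.41 and 0 at 12 h, against 4.16, 8.10 and 6.13 in the control (-2.80, -1.96, -2.52 and -2.08 at 1, 3, 6 and 12 h; unadjusted p 0.00743). Both genes also needed the control libraries to pass the filter on low values. In both genes all 12 injured libraries lay below the control, and the highest of them, 12 h replicate B, had 1.81 FPKM of TKFC and 3.41 FPKM of znf1159. That library was also the highest in neural markers, whose part in these values was not tested.

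On the higher side the smallest p belonged to C25H11orf96, which had 37.4, 41.8 and 43.4 FPKM at 1 h, 44.5, 102 and 92.4 at 3 h, 62.1, 6.81 and 33.8 at 6 h and 13.0, 32.9 and 23.0 at 12 h, against 14.3, 2.28 and 2.37 in the control, with 2.92, 3.78, 2.22 and 2.02 at 1, 3, 6 and 12 h (unadjusted p = 0.0112). Control replicate A, at 14.3 FPKM, lay above 6 h replicate B and 12 h replicate A. MT-ND2, a mitochondrially encoded subunit of respiratory complex I, had 2987, 1673 and 2458 FPKM at 1 h, 1689, 1624 and 1978 at 3 h, 1565, 1537 and 1164 at 6 h and 2267, 998 and 1504 at 12 h, against 708, 960.2 and 869 in the control. Its 12 injured libraries lay above all control libraries, with 12 h replicate B the nearest to it and 1.46, 1.07, 0.75 and 0.84 at 1, 3, 6 and 12 h (unadjusted p = 0.0146).

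Chosen after their values were seen, prdx1, amotl2b and rbm4.3 were also higher at each time at an unadjusted p under 0.05. prdx1, the peroxide-removing peroxiredoxin, had 25.9, 20.7 and 15.7 FPKM at 1 h, 72.7, 50.3 and 23.0 at 3 h, 17.6, 12.3 and 28.9 at 6 h and 15.1, 9.09 and 10.7 at 12 h, against 0.790, 7.76 and 5.18 in the control, and all injured libraries lay above the control. amotl2b, an angiomotin-like scaffold of cell junctions, had a lowest, median and highest injured value of 3.24, 7.43 and 18.7 FPKM, against 3.19, 0.342 and 1.79 FPKM in the control, with 1.38, 2.34, 1.61 and 1.88 at 1, 3, 6 and 12 h. The RNA-binding gene rbm4.3 had a lowest, median and highest injured value of 20.8, 29.4 and 58.4 FPKM, against 14.2, 13.5 and 10.6 FPKM in the control, with 1.04, 1.55, 1.03 and 1.19 at 1, 3, 6 and 12 h. The 12 h difference of amotl2b exceeded its 1 h and 6 h differences, unlike those of the 7 genes described first.

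**Figure D3:**
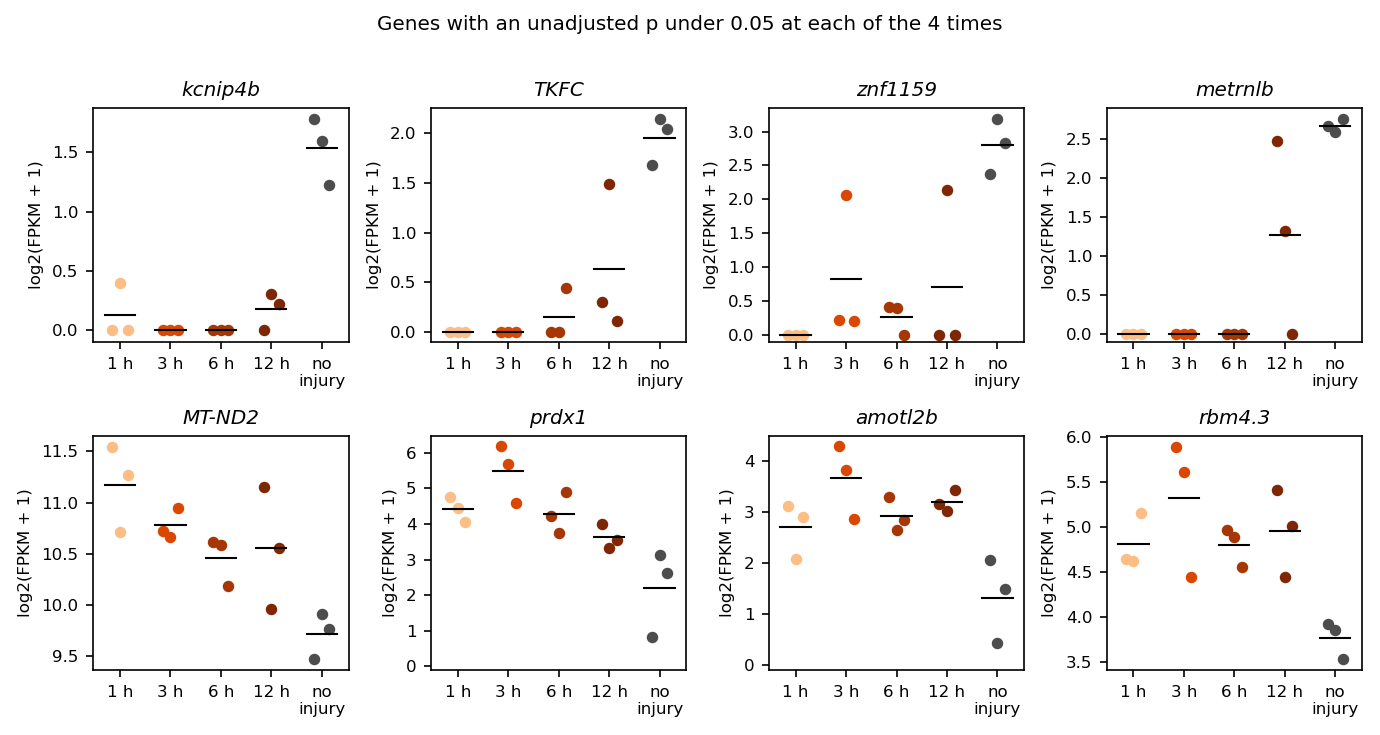
Per-library log2(FPKM + 1) (points) with group means (bars) of 8 genes whose unadjusted p was under 0.05 at each of the 4 times; none passed after adjustment. kcnip4b, TKFC, znf1159 and metrnlb are near or at 0 in most injured libraries, and MT-ND2, prdx1, amotl2b and rbm4.3 have group means above the control at all 4 times.

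Several further genes had small p-values for the injured mean and missed the threshold. metrnlb, a gene for a secreted meteorin-like protein, was listed at 0 in all 9 libraries of 1, 3 and 6 h. It had 4.57, 1.5 and 0 FPKM at 12 h, against 5.32, 5.01 and 5.76 FPKM in the control (log2 difference -2.35 ± 0.43, limma adjusted p = 0.0619). This gene passed the filter on low values only with the control libraries. arpp21, a gene for a cyclic-AMP-regulated phosphoprotein, had 24.4, 4.24 and 14.0 FPKM at 1 h, 44.3, 24.5 and 40.3 at 3 h, 33.7, 21.7 and 13.5 at 6 h and 1.69, 0.0253 and 2.32 at 12 h, against 1.16, 0.715 and 0.698 in the control (log2 difference 2.71 ± 0.50, limma adjusted p = 0.0684). CDC42EP3 encodes an effector of the small GTPase CDC42, which organizes actin and septins. It had 5.67, 1.31 and 11.07 FPKM at 1 h, 15.2, 16.8 and 12.1 at 3 h, 20.2, 24.1 and 21.0 at 6 h and 79.1, 89.1 and 58.4 at 12 h, against 80.8, 74.7 and 81.7 in the control. The 9 early libraries lay below the control and of those of 12 h 1 lay within the control range, 1 above and 1 below it (log2 difference -2.02 ± 0.39, limma adjusted p = 0.0797). CNN2, an actin-binding calponin, had 30.0, 40.8 and 67.0 FPKM at 1 h, 177, 179 and 84.5 at 3 h, 32.3, 23.5 and 43.0 at 6 h and 22.2, 24.5 and 28.5 at 12 h, against 13.7, 14.2 and 12.6 in the control, and all 12 injured libraries lay above the control (log2 difference 1.73 ± 0.33, limma adjusted p = 0.0797).

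Counted without a model, 45 genes had injured libraries that did not overlap with the control (0.345%), 26 higher (0.199%) and 19 lower (0.146%). After median ratio scaling of the libraries it was 18 higher and 32 lower, and after quantile normalization, which gives values of 0 a different level in each library, 202 higher and 30 lower. The count rests on the 3 control libraries, and was 127 without replicate A of the control, 176 without B, 220 without C and 74 without 12 h replicate B. Among the 19 lower genes 14 were listed at 0 in some injured library, and their control median was 5.36 FPKM. The widest gaps between the groups were those of PCYT2, kcnip4b, nectin3b, jam2a and CNN2, named after their values were seen. PCYT2, an enzyme of phosphatidylethanolamine synthesis, had a lowest, median and highest value of 2.95, 5.13 and 14.0 FPKM in injured libraries, against 1.17, 1.09 and 1.05 FPKM in the control. Its control libraries were almost alike and every injured library was higher, with 1.45, 2.14, 1.69 and 1.13 at 1, 3, 6 and 12 h. nectin3b and jam2a encode cell adhesion molecules of the immunoglobulin superfamily. nectin3b had a lowest, median and highest injured value of 0, 3.12 and 6.88 FPKM, against 12.3, 19.5 and 15.8 FPKM in the control, with -2.52, -1.96, -2.37 and -2.45 at 1, 3, 6 and 12 h. jam2a had a lowest, median and highest injured value of 0, 15.8 and 32.3 FPKM, against 54.6, 79.3 and 54.8 FPKM in the control, with -1.86, -3.82, -2.45 and -1.64 at 1, 3, 6 and 12 h. Neither adhesion gene passed for the injured mean (limma adjusted p = 0.295 and 0.517), and each varied widely among injured libraries.

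Groups of genes were read through lists of known function, with the counts over all tested genes beside them. Of all 13051 genes 51.5% had a positive injured mean difference, and the median was 0.02. At 12 h the median of all genes was itself 0.32, so a list's 12 h value is best read against that shift. No set test was made, since the members were chosen with earlier results known. Of 33 immediate early and AP-1 genes 1 rose (FOSL2), 0 fell and 27 had a positive difference, with a median of 0.79. Their medians were 1.00, 1.52, 0.05 and 0.20 at 1, 3, 6 and 12 h. FOSL1, another AP-1 subunit, had 7.39, 60.6 and 8.58 FPKM at 1 h, 77.3, 28.3 and 52.0 at 3 h, 3.57, 0.139 and 4.87 at 6 h and 0, 0.220 and 0 at 12 h, against 0, 0.151 and 0 in the control (limma adjusted p = 0.144). JUNB had log2 differences of 2.57, 3.36, 1.16 and 0.26 at 1, 3, 6 and 12 h, and KLF6, a zinc finger transcription factor, of 2.14, 2.17, 0.84 and 0.74 at 1, 3, 6 and 12 h. KLF6 was the steadier of them, with a lowest, median and highest injured value of 9.24, 24.4 and 51.0 FPKM, against 7.74, 4.83 and 11.5 FPKM in the control. The neural markers were high in the 1 h library of column B, which also had the highest immediate early level of all libraries, 2.64 above the control mean. Their part in that level was not tested. Without that library the 1 h difference was 1.59 for JUNB and 3.10 for FOSL1, and the list's 1 h median was 0.48.

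Of 23 JAK-STAT and SOCS genes 1 rose (SOCS3), 17 had a positive difference and the median was 0.71. STAT3, the transcription factor downstream of interleukin 6, had log2 differences of 2.36, 2.39, 1.31 and 1.33 at 1, 3, 6 and 12 h (limma adjusted p = 0.315). il6st, the shared receptor chain gp130, had 1.73, 2.11, 2.02 and 0.42 at 1, 3, 6 and 12 h (limma adjusted p = 0.295). The list's level lay above the highest control library in 11 of 12 injured libraries. Of 25 cytokine and chemokine genes 0 passed, 13 had a positive and 12 a negative difference. The neutrophil attractant cxcl8b.1 had 29.4, 77.2 and 23.2 FPKM at 1 h, 42.1, 61.1 and 29.5 at 3 h, 37.9, 25.9 and 8.58 at 6 h and 1.85, 0 and 29.4 at 12 h, against 0, 0 and 6.25 in the control (limma adjusted p = 0.211), and its control libraries differed widely. ccl27a, a chemokine of epithelia in mammals, had 5.22, 19.6 and 22.1 FPKM at 1 h, 0, 12.2 and 0.739 at 3 h, 9.04, 9.72 and 0.965 at 6 h and 45.8, 99.2 and 32.5 at 12 h, against 238, 88.0 and 40.9 in the control (limma adjusted p = 0.193).

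Of 39 haem, iron and antioxidant genes 1 rose (HMOX1) and 21 had a positive difference, with a median of 0.07. GCLM, a subunit of the enzyme that starts glutathione synthesis, had log2 differences of 1.76, 2.67, 2.18 and 1.72 at 1, 3, 6 and 12 h (limma adjusted p = 0.586). Of 29 clock genes 1 rose (BHLHE40) and 17 had a positive difference. PER3 had a lowest, median and highest injured value of 0.113, 1.88 and 6.51 FPKM, against 0.0834, 0.0522 and 0.0135 FPKM in the control. The Rev-erb family gene nr1d4b was listed at 0 in all 9 libraries of 1, 3 and 6 h. It had 5.65, 3.87 and 5.75 FPKM at 12 h, against 1.72, 7.28 and 11.14 FPKM in the control. Clock genes follow time of day in zebrafish tissues, and here the time of day of the control is not given. Of 32 muscle stress genes 1 rose (tcap) and 15 had a positive difference.

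Mitochondrially encoded mRNAs showed the most uniform direction of the lists with 5 or more tested members. All 13 had a positive injured mean difference, 12 had a positive difference at every time (92.3%, against 16.1% of all genes), and 0 passed in limma (median 0.70). At an unadjusted p under 0.05, 9 were higher, against 2.93% of all genes, and with voom on recovered reads 1 passed, MT-ND4. Without the 2 libraries with high neural markers 5 passed in limma, among them MT-ND2, MT-ATP6 and MT-ND4. The exception was MT-CO1, at -0.02 at 6 h. Their medians were 1.06, 0.82, 0.42 and 0.47 at 1, 3, 6 and 12 h. Their mean level was 0.10 to 1.31 above the control mean in the 12 injured libraries, all higher than the highest control library at 0.08. The difference was unequal within the list: MT-ND2 had 1.03 ± 0.22, MT-ATP6, a subunit of ATP synthase, 0.84 ± 0.18 and MT-ND4, another subunit of complex I, 0.71 ± 0.17, against 0.22 ± 0.13 for the cytochrome oxidase subunit MT-CO1. Mitochondrial transcripts are cut from long shared precursors and depend on each library's share of mitochondrial reads, so the members do not count as 13 separate observations. Respiratory chain genes encoded in the nucleus were not higher as a group: of 97, 40 had a positive difference, 0 passed and the median was -0.07.

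Heat shock genes of the cytosol were mostly higher. Of 31, 26 had a positive difference (median 0.55), 16 were higher at every time (51.6%, against 16.1% of all genes) and 1 was lower. In limma and voom 0 passed, and 10 were higher at an unadjusted p under 0.05, against 2.93% of all genes. Without the 2 libraries with high neural markers 12 were higher at every time. Their level lay above the control range in 11 of 12 injured libraries. Their medians were 0.79, 0.48, 0.85 and 0.26 at 1, 3, 6 and 12 h, the last below the 0.32 of all genes at 12 h. The small heat shock gene hspb9 had 11.4, 14.9 and 19.2 FPKM at 1 h, 125, 77.0 and 115 at 3 h, 6.91, 10.4 and 4.18 at 6 h and 6.42, 7.79 and 7.55 at 12 h, against 5.42, 4.87 and 2.14 in the control, with the 3 h libraries far above the rest (limma adjusted p = 0.0928). The inducible chaperone gene hsp70l had log2 differences of 3.61, 3.90, 2.19 and 0.23 at 1, 3, 6 and 12 h, and hsp70.3 of 3.00, 4.35, 2.27 and 0.50 at 1, 3, 6 and 12 h. hsp70.3 was listed at 0 in all 3 control libraries. hsp70l had 0, 1.17 and 0.0323 FPKM in the control, and the second of these lay above 2 of the 3 libraries of 12 h. Chaperones of the endoplasmic reticulum had medians of 0.06, -0.15, 0.65 and 0.77 at 1, 3, 6 and 12 h, over 29 members. HSPA5, the main chaperone there, had a lowest, median and highest injured value of 17.8, 34.3 and 85.6 FPKM, against 18.4, 17.2 and 13.9 FPKM in the control (limma adjusted p = 0.586).

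**Figure D4:**
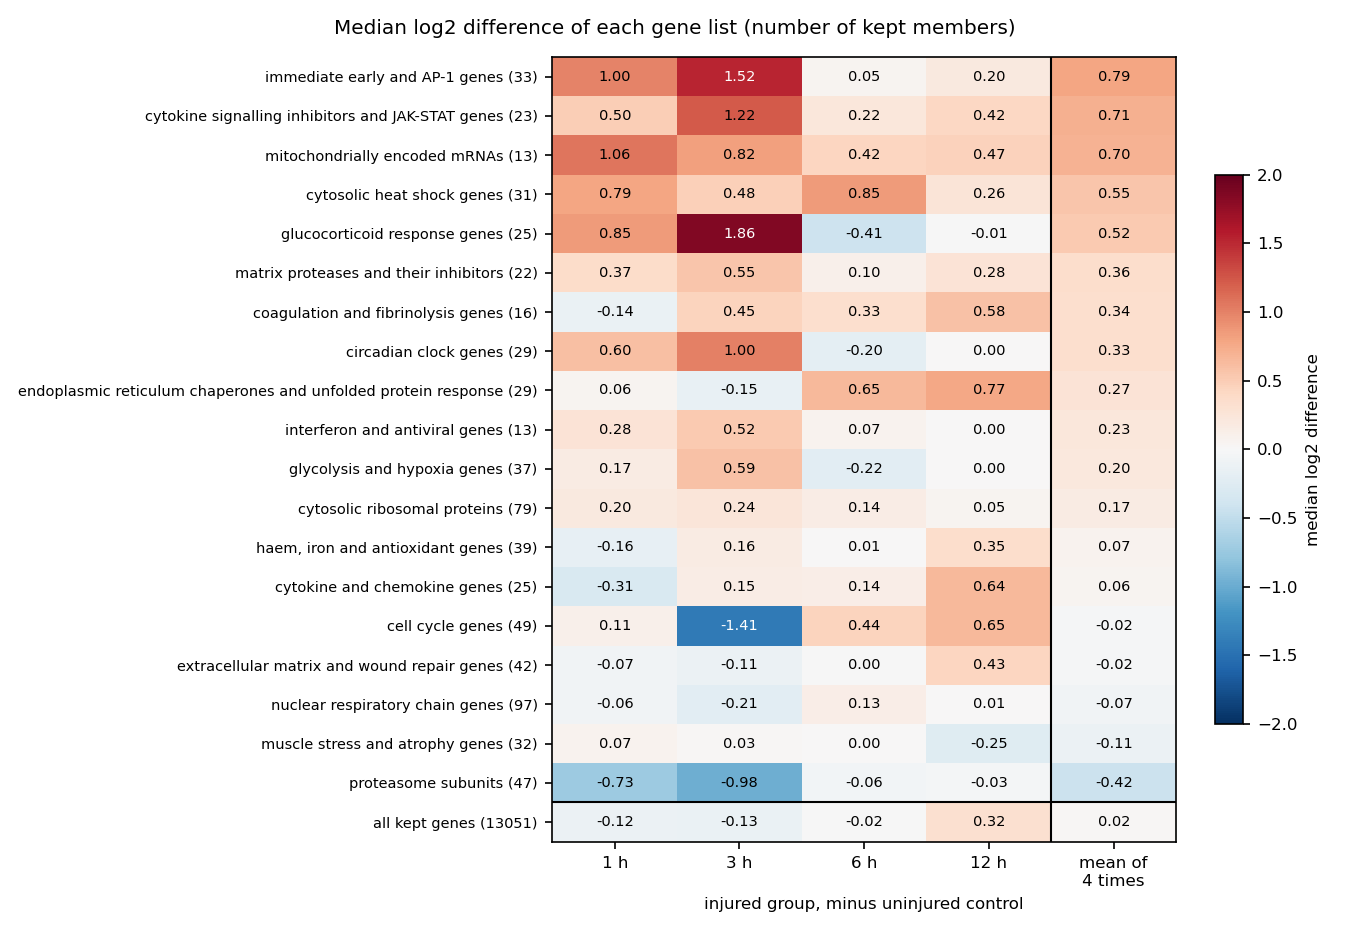
Median log2 difference from the uninjured control of each list of response genes with 5 or more tested members, at each time and for the mean of the 4 times; red is higher and blue lower in injured tissue. Mitochondrially encoded mRNAs, heat shock genes, JAK-STAT genes, ribosomal protein genes, immediate early genes, matrix proteases and interferon genes have positive medians at all 4 times, some of them close to 0, proteasome subunits negative ones, and the median of all genes at 12 h is 0.32.

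Proteasome subunits lay on the other side. Of 47, 41 had a negative difference (median -0.42), 14 were lower at every time (29.8%, against 14.1% of all genes) and 3 were higher. In limma and voom 0 passed, and 6 were lower at an unadjusted p under 0.05, against 3.33% of all genes. The medians were -0.73, -0.98, -0.06 and -0.03 at 1, 3, 6 and 12 h, nearest to 0 at 6 and 12 h. PSMA3, of the proteasome core, had 74.8, 86.3 and 89.8 FPKM at 1 h, 90.4, 85.3 and 68.1 at 3 h, 150.3, 175 and 140.1 at 6 h and 241, 209 and 186 at 12 h, against 173, 245 and 177 in the control, and at 6 and 12 h it overlapped with the control. PSMB4, also of the core, had log2 differences of -1.21, -1.45, -0.36 and -0.14 at 1, 3, 6 and 12 h. Differences of ribosomal protein genes were small, with a median of 0.17 (0.05 at 12 h) and 0 past the threshold. Of 79, 61 had a positive difference and 43 were higher at every time (54.4%, against 16.1% of all genes).

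The remaining response lists held 0 genes past the threshold for the injured mean in limma, and with voom 1, the cartilage collagen COL9A1. Of 25 glucocorticoid response genes 18 had a positive difference, with medians of 0.85 and 1.86 at 1 and 3 h and -0.41 and -0.01 at 6 and 12 h. FOXO1, a forkhead transcription factor, had log2 differences of 1.52, 2.51, 0.58 and 0.20 at 1, 3, 6 and 12 h. Of 22 matrix proteases and inhibitors 16 had a positive difference. MMP9, a gelatinase, had 10.2, 5.87 and 0 FPKM at 1 h, 113, 88.3 and 46.5 at 3 h, 9.17, 1.84 and 3.97 at 6 h and 0.0279, 0.101 and 1.90 at 12 h, against 0, 0.413 and 0 in the control, and mmp13a, a collagenase, had log2 differences of 1.70, 4.40, 3.08 and 1.1 at 1, 3, 6 and 12 h. Of 16 coagulation and fibrinolysis genes 9 had a positive difference. Tissue factor f3b, which starts coagulation, had log2 differences of 2.55, 2.96, 1.32 and 0.43 at 1, 3, 6 and 12 h, and of 1.34 at 1 h without the library of column B. ANXA2, which binds plasminogen activator at cell surfaces, had a lowest, median and highest injured value of 16.7, 83.3 and 482 FPKM, against 19.3, 21.1 and 25.3 FPKM in the control. Of 42 matrix and repair genes 20 had a positive difference, and THBS1, the gene of thrombospondin 1 (2 summed IDs), had 1.93, 2.79, 0.92 and 0.56 at 1, 3, 6 and 12 h. Of 37 glycolysis and hypoxia genes 20 had a positive difference. lepb, a leptin gene, rested on 3 h, with 228, 108 and 346 FPKM there, while all libraries of 12 h and of the control were at 0. Of 49 cell cycle genes 24 had a positive difference, with a median of -1.41 at 3 h and of 0.11, 0.44 and 0.65 at 1, 6 and 12 h. cdkn1a, the cell cycle inhibitor p21, had 15.7, 12.9 and 5.17 FPKM at 1 h, 0, 4.57 and 0 at 3 h, 0, 6.09 and 1.62 at 6 h and 4.92, 26.6 and 48.7 at 12 h, against 30.1, 49.0 and 22.5 in the control (limma adjusted p = 0.317). Of 13 interferon genes 8 had a positive difference. All 3 complement genes that passed the filter did, with c7a, a part of the membrane attack complex, at 0.17, 0.89, 1.75 and 1.66 at 1, 3, 6 and 12 h.

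The makeup of the captured tissue was followed with marker lists of 12 cell types, which had 0 members past the threshold in limma, and with voom 2, tpma and COL9A1. In these bulk samples, fewer cells of a type and less RNA per cell cannot be told apart. Of 35 endothelial markers 22 had a negative and 13 a positive difference (median -0.37). At every time 14 were lower (40%, against 14.1% of all genes) and 0 were higher. At an unadjusted p under 0.05, 4 were lower, against 3.33% of all genes. The list's level was below the control range in 8 of 12 injured libraries. It ranged from -0.97 in 1 h replicate A to 0.31 in 12 h replicate C. ESAM, a junction protein of endothelium, had 0, 0.438 and 0 FPKM at 1 h, 0, 0 and 0.543 at 3 h, 2.47, 5.16 and 2.73 at 6 h and 1.48, 1.22 and 8.75 at 12 h, against 3.38, 5.08 and 5.37 in the control (limma adjusted p = 0.586). dab2, an endocytic adaptor that is strong in venous endothelium, had a lowest, median and highest injured value of 0.111, 2.31 and 37.3 FPKM. Its control values were 5.30, 9.44 and 51.5 FPKM, which span a wide range. The endothelial cadherin gene cdh5 was not lower, with a lowest, median and highest injured value of 0.189, 2.56 and 5.15 FPKM. Its control libraries had 0.764 to 2.35 FPKM. Of 43 skeletal muscle markers 29 had a negative difference and 13 were lower at every time (30.2%, against 14.1% of all genes), with a median of -0.25. At an unadjusted p under 0.05, 8 were lower and 1 higher, against 3.33% and 2.93% of all genes. tpma, a muscle tropomyosin, had log2 differences of -0.93, -0.86, -0.20 and -0.77 at 1, 3, 6 and 12 h, and the muscle actin actc1b of -0.93, -0.65, -0.24 and -0.61 at 1, 3, 6 and 12 h. The intermediate filament gene DES (2 summed IDs) went the other way, with 0.54, 0.92, 1.67 and 0.23 at 1, 3, 6 and 12 h. ASB15 (2 summed IDs), which encodes a substrate adaptor of cullin ubiquitin ligases that is known from muscle, was listed at 0 in all 6 libraries of 1 and 3 h. It had 2.55, 8.18 and 23.5 FPKM at 6 h and 6.70, 1.32 and 2.41 at 12 h, against 18.4, 7.90 and 19.9 FPKM in the control.

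Of 18 neutrophil markers 15 had a positive difference, with a median of 0.57 and a library level of -0.51 to 2.15 in injured and -0.09 to 0.09 in control tissue. Their summed FPKM did not follow that level, with 76.4 to 1272 in injured (median 551) and 417 to 898 in control libraries. MMP9, given above with the matrix proteases, is also on this list. The lysozyme gene lyz, a defining neutrophil and macrophage marker, did not pass the filter, at 0 to 0.693 FPKM in injured and 0 to 0.218 FPKM in control libraries. Macrophage markers were higher in 11 of 21 cases (median 0.07), and the antigen-presentation gene cd74b had log2 differences of -2.27, -0.95, -2.26 and -1.24 at 1, 3, 6 and 12 h. Erythroid markers were higher in 16 of 23 cases (median 0.27), and epb41b, of the red cell membrane skeleton, had 2.46, 1.16, 0.93 and 0.48 at 1, 3, 6 and 12 h. Thrombocyte markers were higher in 9 of 14 cases (median 0.10). Epidermis markers were higher in 21 of 43 cases (median -0.01), with ahnak at 1.13, 2.22, 0.71 and 1.19 at 1, 3, 6 and 12 h. Fin fold and fibroblast markers were higher in 16 of 25 cases (median 0.15). Among them and2, a gene of the actinodin fibres of the fin fold, had 171, 265 and 60.8 FPKM at 1 h, 272, 208 and 105 at 3 h, 3.73, 9.73 and 34.3 at 6 h and 206, 164 and 484 at 12 h, against 5.76, 10.7 and 59.0 in the control, with 6 h at control values. Notochord and cartilage markers were lower in 17 of 22 cases (median -0.79), 6 of 12 injured libraries being below the control range. Their medians were -1.67, -1.12, 0.12 and -0.25 at 1, 3, 6 and 12 h. Only 3 were lower at every time (13.6%, against 14.1% of all genes) and 2 were higher. COL9A1, 1 of these 3, had -1.70, -1.19, -0.96 and -1.70 at 1, 3, 6 and 12 h. Neural markers were higher in 26 of 31 cases (median 0.56), and without the 2 libraries in which they stood apart in 19 of 31 (median 0.09, with -0.09 at 1 h and 0.08 at 12 h, against 0.55 and 1.47 with them), with the granin gene scg2b listed at 0 in all control libraries and in 5 injured ones. Of 6 pancreas and intestine markers and 4 liver markers 1 each had a positive difference, with CPA1 at -2.93, -0.54, -1.51 and -0.42 at 1, 3, 6 and 12 h (0.49 at 12 h without replicate B) and apoa1a at -1.45, -1.35, -0.94 and -0.02 at 1, 3, 6 and 12 h.

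**Figure D5:**
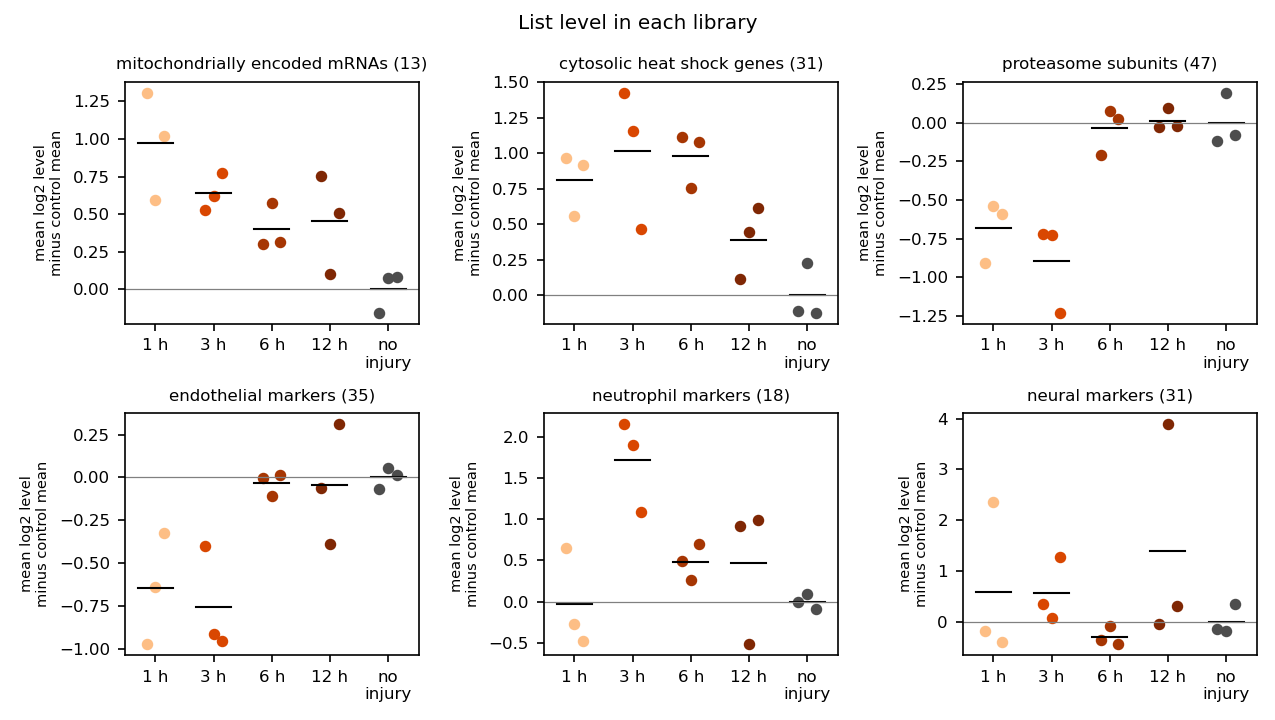
Mean log2 level of the tested members of 6 lists in each library (points), relative to the control mean, with group means (bars). All 12 injured libraries lie above the control for mitochondrially encoded mRNAs, proteasome and endothelial lists are low mainly at 1 and 3 h, and neural markers are high in 1 library each at 1 and 12 h.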

How the data were processed

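RNA sequencing libraries of laser-captured zebrafish tissue were analysed, 12 injured and 3 uninjured. Per the submitters' processing notes, HISAT, StringTie and edgeR were used with GRCz11, and per the labels' protocols the genome was that of Ensembl release 106. The sources used here give no tool versions. The deposited values are FPKM for 32520 gene IDs, scaled by the authors to transcript length and library size. A gene name table gave symbols, many in the human style, to 29201 IDs, and FPKM were summed over IDs with 1 symbol, giving 28103 genes. Among kept genes, 1280 are such sums, whose copies can share reads. Use of strand in counting is not stated. A further 3 columns match no labelled sample and were not used. A 1 h column with the letter B, which no 1 h title carries, was assigned to the 1 h group only.

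FPKM were taken as whole multiples of 1 read to recover reads, and all 20690 IDs above 0 in 2 or more libraries came out whole within 0.001 reads. For IDs above 0 in only 2 libraries such a fit can always be found, so it is no check there. The smallest multiple that fitted was taken, so recovered reads and depth can be too low. The floor of 3 reads covers counting error only. The filter asked for 1 FPKM or more in 3 or more libraries and kept 13051 genes. In limma 3.58.1 (R 4.3.3, eBayes with a trend), log2(FPKM + 1) of 15 libraries was fitted with 5 group means. The contrast was the mean of the 4 injured means minus the control. Tests were two-sided, adjusted after Benjamini and Hochberg over the 13051 genes, at a threshold of 0.05. Per gene, the largest of the 4 single-time p-values was adjusted in the same way, and a moderated F test compared the 4 injured times. The fit was tested on simulated data.

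Genes were named by a rule: the largest differences, widest gaps and evenest times among genes past the threshold with 1 sign at 4 times, the 5 smallest p-values at every time, 5 genes that differ among times, up to 4 members past the threshold per list or the member nearest to it, and the smallest p-values where under 5 passed. A gene that the rule chose is not reported here. Further genes named as examples of lists were chosen after their values were seen. Members and lists were chosen with earlier results of these data known. Alternatives were another pseudocount (0.1), no filter or a minimum of 5 FPKM, other scalings, array weights, a replicate block, 1 spread for 2 groups, 1 value per ID, voom, the submitters' threshold (unadjusted p under 0.05 and log2 difference beyond 1), and leaving out each library, each time or, chosen after seeing the data, the 2 libraries with high neural markers.

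Replicate letters were not used as pairs in the main fit. Deviations of like-lettered libraries were at most weakly correlated, which does not tell whether they shared animals.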

Additional observations from a re-analysis of the deposited data

Results flagged for a closer look

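A total of 277 genes differed among the 4 injured times in limma's moderated F test (adjusted p under 0.05), so a single mean over the times does not describe them. Among the genes named here, the adjusted p of this test was 0.000189 for tcap, 0.000325 for ppdpfa, 0.000345 for HMOX1, 0.000345 for SOCS3, 0.0019 for BHLHE40, 0.00246 for cbx7a and 0.00851 for FOSL2. Of genes that missed the threshold for the injured mean, it was 0.00129 for hspb9, 0.00246 for lepb, 0.00397 for FOSL1, 0.00495 for CDC42EP3, 0.00568 for MMP9, 0.00942 for arpp21, 0.0175 for CNN2, 0.0205 for and2 and 0.0253 for PSMA3. It was 0.0299 for nr1d4b, 0.0347 for ASB15, 0.0414 for atp5meb, 0.0418 for FOXO1, 0.0475 for THBS1 and 0.0494 for hsp70l.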

How the results depend on the processing

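The count of 7 genes moved with the fit. It was 3 with a pseudocount of 0.1, 33 with array weights, 27 with voom on recovered reads (3 higher and 24 lower, mostly low genes), 0 with 1 spread for 2 groups, 3, 0, 4 and 31 without the 1, 3, 6 and 12 h libraries, 23 without the 2 libraries with high neural markers, and 674 at the submitters' threshold. That threshold, applied here to the limma fit, is an unadjusted p under 0.05 with a log2 difference beyond 1, so its counts carry no adjustment for the number of genes. Leaving out 1 library gave 0 to 11. The 4 genes with 1 sign at all times were 28, 25, 0, 0, 31, 20 and 562 with array weights, voom, 2 groups, without 3 h, without 12 h, without those 2 libraries and at the submitters' threshold, and 0 to 8 leaving out 1 library. With no filter 7 genes passed, 3 higher and 4 lower, against 6 and 1. The count past the threshold at every time was 3 without 12 h (tcap, cbx7a and metrnlb) and 29 at the submitters' threshold. It was 0 in the other alternatives that give it (the fit with 2 groups does not), and leaving out 1 library gave 0 to 0. metrnlb was listed at 0 in all libraries of 1, 3 and 6 h and passed the filter only with the control libraries. Its call is therefore no separate support for a difference. The 277 genes that differed among times were 116 with no filter, 480 with voom, 444, 44, 123 and 73 without 1, 3, 6 and 12 h, and 139 to 287 leaving out 1 library, or 380 without the 1 h library of column B. The 45 genes without overlap were 232 after quantile normalization (202 higher and 30 lower) and 50 to 220 leaving out 1 library.

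With the replicate letter as a block the count was 4, of which 3 were among the 7. Over 26 pairs of like-lettered libraries the correlation of deviations was -0.1551 to 0.134, and above 0.1 in 1 pair. No named gene reversed. Of 960 comparisons of list medians with an alternative, 15 moved by more than the list's spread among libraries of a group. Medians near 0 could change sign. Without the 2 libraries with high neural markers, that of glycolysis and hypoxia genes went from 0.20 to -0.02 and that of macrophage markers from 0.07 to -0.02. Of 2062 comparisons of named genes with an alternative 1860 gave the same call, 89 lost and 113 gained it. Most of the 67 named genes had missed the threshold, so the same call mostly means not called again, and the losses all fall on the 7. With the submitters' threshold left aside, ppdpfa was called in 27 of 30 alternatives, cbx7a in 25, tcap in 20 and BHLHE40 in 19. FOSL2 was called in 9 of 30, HMOX1 in 8 of 30 and SOCS3 in 12 of 29. The median difference of all genes was -0.12 with voom, against 0.02. For the 7 genes adjusted p ranged up to 0.741 for cbx7a, 0.935 for ppdpfa, 0.958 for FOSL2 and 0.965 for the others. Depth limits low genes most, where 0 is listed and 3 reads are the floor.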

Other observations

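Without the 12 h libraries, the mean of 1, 3 and 6 h differed from the control in 31 of 13051 genes, 21 higher and 10 lower (limma adjusted p under 0.05). The 31 included all 7 of the genes described first. That fit and the one with all 4 times share the control libraries. In the fit with all 4 times, 6 of the 31 had a 12 h difference of the other sign or of 0. The median ratio of the 12 h difference to the mean of 1, 3 and 6 h was 0.28 over the 31. ODC1, the first enzyme of polyamine synthesis, had a log2 difference of 2.95 (limma adjusted p = 0.0280), and the chemokine gene ccl34a.4 one of 3.62 (0.0224). PRELID3B, of a family that moves lipids between mitochondrial membranes, had 1.90 (limma adjusted p = 0.0224). Its differences at 1, 3 and 6 h were 2.44, 3.25 and 0.02. Among the lower genes were ifi27.3, of the interferon alpha inducible protein 27 family, at -2.47 (0.0375) and the tetraspanin gene tspan37 at -3.33 (0.0396). ifi27.3 had -2.12, -2.64 and -2.64 at 1, 3 and 6 h, the last 2 being those of a gene at 0. Whether ifi27.3 and tspan37 passed the filter on low values through the control was not examined, so their p-values are no separate support. metrnlb and TKFC, also among the lower genes, passed it only with the control libraries. In the same fit the mitochondrially encoded MT-ND2 (1.09), MT-ATP6 (0.89) and MT-ND6 (1.05) passed, as did CDC42EP3 (-2.66) and CNN2 (2.02).

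With voom on recovered reads, genes passed that missed the threshold in limma on FPKM: among the named genes these were nr1d4b (log2 difference -6.28, adjusted p = 0.000326), ASB15 (-5.44, 0.000598), CDC42EP3 (-2.15, 0.00376), TKFC (-6.11, 0.00438), tpma (-0.69, 0.00438), metrnlb (-6.26, 0.00506), kcnip4b (-6.06, 0.0108), COL9A1 (-5.79, 0.0457) and MT-ND4 (0.71, 0.0457). TKFC, metrnlb and kcnip4b passed the filter on low values only with the control libraries, where they are high. Their p-values in this fit are therefore no separate support for a difference. Fitted values of genes at 0 reads depend on the offset that voom adds and are no fold change. The injured mean of the stress-responsive gene nupr1a (-1.42, voom adjusted p = 0.0141) and the F-box gene fbxo2 (-1.43, 0.0264) was lower at levels well above 0. nupr1a had -2.44, -2.18, -0.64 and -0.41 at 1, 3, 6 and 12 h. fbxo2 changed sign, with -2.13, -1.82, -2.21 and 0.42 at 1, 3, 6 and 12 h.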
